A study of Mus musculus with 16 samples.

Results

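The T cell receptor beta chain is assembled from a variable (Trbv), a diversity (Trbd) and a joining (Trbj) segment, and is spliced to a constant region (Trbc). All rows of the deposited gene count files were taken whose Ensembl identifier maps to a symbol that begins with Trbv, Trbd, Trbj or Trbc. This gave 53 genes of the 55335 gene rows in the files with a stated age and of the 54532 in the files without one: 35 Trbv, 2 Trbd, 14 Trbj and 2 Trbc. All 53 are listed in all 16 files.

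RNA came from mouse thymic double-positive (DP) cells sorted by flow cytometry, the CD4 and CD8 expressing stage that follows rearrangement of the beta locus. The libraries with an age were labelled young with METTL3 KO genotype (3), old with WT genotype (4) and young with WT genotype (3). A further 3 METTL3 KO and 3 WT libraries carry a genotype and no age. METTL3 is the methyltransferase that places N6-methyladenosine on messenger RNA. The labels give no age in months, no strain, no sex, no Cre driver or deleted exon, and no statement that replicates came from separate animals, so p-values measure the spread between these libraries, which may be technical. Mettl3, the targeted gene, had 62.1, 64.5 and 64.3 CPM in young KO-labelled libraries, 65.9, 60.6, 64.4 and 59.9 CPM in old WT libraries, and 65.99, 65.7 and 59.5 CPM in young WT libraries, so its level did not separate the young groups. In the set without an age it had 32.5, 38.6 and 26.98 CPM in KO-labelled libraries, against 54.5, 47.2 and 45.1 CPM in WT libraries, and it fell by 0.58 on the log2 scale (edgeR's quasi-likelihood test with Benjamini-Hochberg adjustment, adjusted p = 0.0189). Since the young libraries labelled METTL3 KO had Mettl3 at the WT level, both groups of that genotype are called KO-labelled here.

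Rearrangement of the beta locus starts in double-negative thymocytes, where RAG1 and RAG2 first join a D to a J segment and then a V segment to the DJ joint. A productive beta chain pairs with the pre-T alpha chain, which signals through CD3, stops further beta rearrangement and carries the cell to the DP stage, where the alpha locus rearranges. Germline transcription of unrearranged segments accompanies the opening of the locus, so a count on a segment can come from a rearranged or from a germline transcript. The J and C regions lie in a pair of clusters: Trbd1, the Trbj1 segments and Trbc1 come first, and Trbd2, the Trbj2 segments and Trbc2 follow. Trbd1 can join segments of either Trbj cluster, and Trbd2 joins those of the Trbj2 cluster.

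The D and J segments are the shortest members, and their letters show which J segments keep the phenylalanine-glycine-X-glycine motif typical of J regions. They were taken from the GENCODE vM21 transcripts (mm10, chromosome 6, plus strand) and are written 5′ to 3′. Capitals mark the 4 codons of that motif where a search in all 3 reading frames found them, with phenylalanine or tryptophan first.
Trbd1, chr6:41533201-41533212: gggacagggggc
Trbd2, chr6:41542163-41542176: gggactgggggggc
Trbj1-1, chr6:41533864-41533911: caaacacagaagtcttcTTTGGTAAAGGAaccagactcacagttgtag
Trbj1-2, chr6:41534001-41534048: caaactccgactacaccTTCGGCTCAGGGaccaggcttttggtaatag
Trbj1-3, chr6:41534323-41534372: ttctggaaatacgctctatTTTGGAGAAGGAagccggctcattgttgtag
Trbj1-4, chr6:41534811-41534861: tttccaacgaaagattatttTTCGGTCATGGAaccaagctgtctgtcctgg
Trbj1-5, chr6:41535084-41535133: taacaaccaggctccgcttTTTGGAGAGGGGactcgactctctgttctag
Trbj1-6, chr6:41535554-41535606: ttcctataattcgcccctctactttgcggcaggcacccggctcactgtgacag
Trbj1-7, chr6:41535642-41535687: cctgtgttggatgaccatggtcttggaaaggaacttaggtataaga
Trbj2-1, chr6:41542754-41542803: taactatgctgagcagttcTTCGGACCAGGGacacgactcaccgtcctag
Trbj2-2, chr6:41542957-41543007: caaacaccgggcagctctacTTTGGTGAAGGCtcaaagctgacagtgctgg
Trbj2-3, chr6:41543223-41543271: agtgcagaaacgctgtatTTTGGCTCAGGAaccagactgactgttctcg
Trbj2-4, chr6:41543362-41543410: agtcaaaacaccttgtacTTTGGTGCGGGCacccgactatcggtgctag
Trbj2-5, chr6:41543453-41543501: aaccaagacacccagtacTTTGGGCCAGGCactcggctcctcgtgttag
Trbj2-6, chr6:41543598-41543645: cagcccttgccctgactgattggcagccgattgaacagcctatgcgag
Trbj2-7, chr6:41543810-41543856: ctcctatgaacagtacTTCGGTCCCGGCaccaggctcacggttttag

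The motif was found in 11 of the 14 Trbj segments and not in Trbj1-6, Trbj1-7 and Trbj2-6. GENCODE classes Trbj2-6 as a pseudogene and Trbj1-6 and Trbj1-7 as J genes, and whether these segments are functional was not tested. The locus spans chr6:40891229-41558452 (mm10), 667 kb from Trbv1 to Trbv31. Trbv31 is the only member on the minus strand, and lies downstream of Trbc2, so it joins by inversion. The annotation places 28 other genes between the first and the last segment, among them the trypsinogen genes. Exons of 4 members overlap another gene on the same strand (Trbv4 and Trbv5 with 5830405F06Rik, Trbv8 and Trbv10 with AC153851.1), and none overlap a gene on the opposite strand. Trbc1 and Trbc2 are near copies: 374 of the 375 bases of their first exons are identical, and 88.9% of 673 aligned transcript bases, so reads of that exon cannot be assigned with certainty.

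The libraries with an age held 9781368 to 10307780 reads on genes, KO-labelled libraries without an age 10575795 to 13740694, and WT libraries without an age 15927134 to 16167074. The Trb members took 0.287% to 0.3602% of gene counts in libraries with an age, and 0.369% to 0.502% in the set without one. Of 35 Trbv segments, 22 are classed as genes and 13 as pseudogenes. No library had a count for Trbv7, Trbv8, Trbv27 and Trbv28, all 4 of them pseudogenes. A count of 0 allows a share of Trbv counts of up to 0.0254% in the library with an age that had the most Trbv counts, and of up to 0.128% in the KO-labelled library without an age that had the fewest. The filter on low counts left 37 members to test with an age (21 Trbv, 2 Trbd, 12 Trbj and 2 Trbc) and 39 without one (22, 2, 13 and 2). Trbv24, the pseudogene with the most counts, was tested in both sets. Which program counted the reads, and what it did with a read that touches several segments, is unknown here. Reads marked ambiguous made up 1.14% to 1.30% where an age is given and 1.88% to 2.29% where it is not.

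Levels are given as CPM (counts scaled to library size, with TMM, within each set), so levels are compared only within a set. The summed Trbv level was 1162, 1143 and 1176 CPM in young KO-labelled libraries, 879.5, 931, 830.4 and 997 CPM in old WT libraries, and 1030.1, 1050.0 and 1183 CPM in young WT libraries. The summed Trbj1 level was 109, 86.1 and 110.1 CPM in young KO-labelled libraries, 64.8, 93.96, 72.6 and 131 CPM in old WT libraries, and 87.99, 101 and 90.6 CPM in young WT libraries. The summed Trbj2 level was 37.8, 30.4 and 36.4 CPM in young KO-labelled libraries, 26.2, 26.1, 25.8 and 31.7 CPM in old WT libraries, and 27.6, 32.1 and 32.04 CPM in young WT libraries. In these libraries the Trbj1 cluster carried about 3 in 4 of all Trbj counts: its share was 74.4% ± 0.67 in young KO-labelled (SD, n = 3), 75.9% ± 4.2 in old WT (n = 4) and 75.3% ± 1.2 in young WT libraries (n = 3). Summed Trbc had 2173, 2056 and 2252 CPM in young KO-labelled libraries, 2073, 1835, 2085 and 1918 CPM in old WT libraries, and 1926, 1915 and 2290.0 CPM in young WT libraries. In the set without an age, summed Trbv had 194, 276 and 325 CPM in KO-labelled libraries, against 1002, 890.4 and 938 CPM in WT libraries. Summed Trbj1 had 3.96, 11.7 and 8.99 CPM in KO-labelled libraries, against 113, 101 and 92.5 CPM in WT libraries, and all 3 KO-labelled libraries lay below all 3 WT libraries for both sums. Summed Trbj2 had 23.8, 41.2 and 37.6 CPM in KO-labelled libraries, against 112, 98.4 and 63.4 CPM in WT libraries, again without overlap. Summed Trbc had 4155, 3402 and 4841 CPM in KO-labelled libraries, against 3549.9, 3256 and 2783 CPM in WT libraries. V and J segments were therefore low in the KO-labelled libraries of this set while the constant regions were not, and in bulk samples fewer cells of a type and less RNA per cell cannot be told apart.

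**Figure D1:**
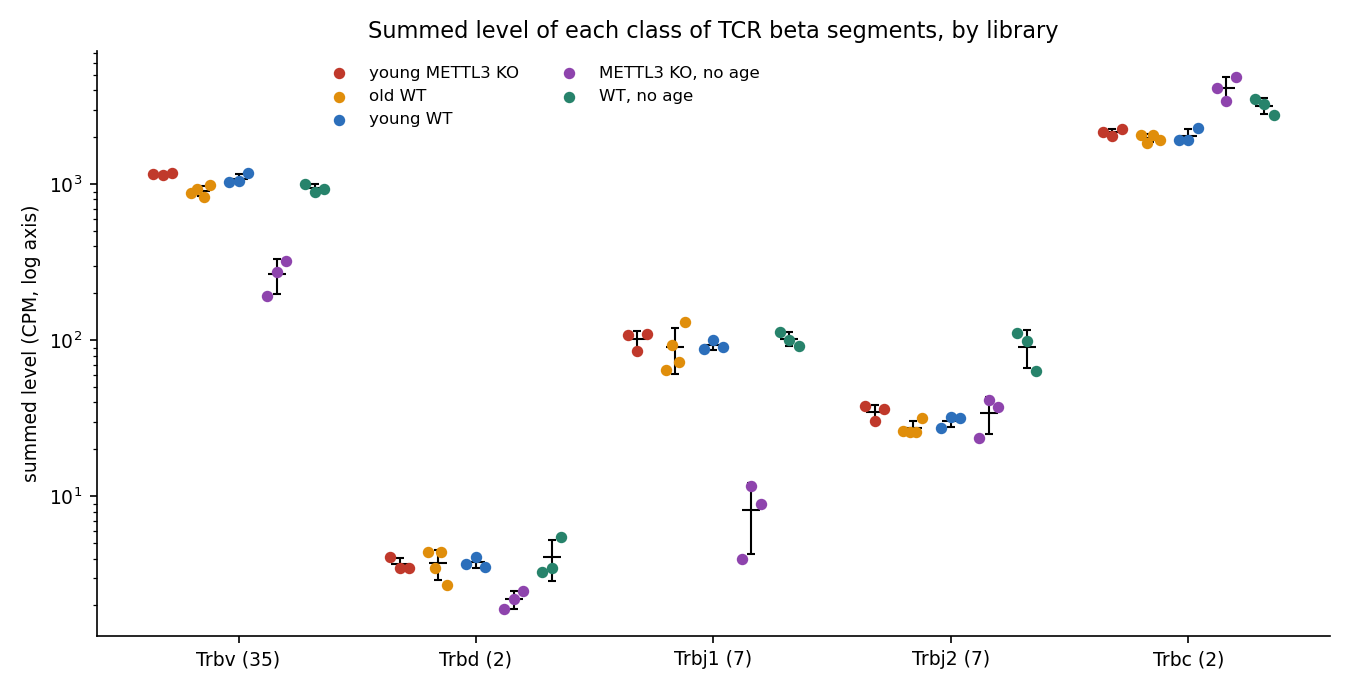
Summed level of each class of TCR beta segments (CPM, log axis; number of members in brackets) in each of the 16 libraries, with the group mean and SD as bars. The Trbv, Trbd, Trbj1 and Trbj2 points of KO-labelled libraries without an age lie below those of their WT libraries, while the Trbc points overlap. Levels are comparable only within a set.

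In the libraries with an age the most counted V segment was Trbv13-2, which held 10.4% of Trbv counts on average over the 10 libraries. Trbv2 (8.28%), Trbv3 (7.91%), Trbv16 (7.32%), Trbv12-2 (7.05%) and Trbv13-1 (6.63%) followed. Trbv13-2 had a higher share than Trbv2 in each of the 10 libraries, its lowest share being 9.22% and the highest share of Trbv2 9.01%. Below it, neighbours in this order overlapped: Trbv2 ranged from 7.86% to 9.01%, Trbv3 from 7.58% to 8.47%, and Trbv16 from 6.94% to 7.91%. Per length of exon, Trbv13-2 stayed first with 12.1% of length-scaled Trbv counts, and Trbv2, whose annotated exons are 560 bases long, had 5.85%, below Trbv16 (7.28%), Trbv12-2 (7.25%), Trbv13-1 (7.17%) and Trbv3 (6.88%). At the low end, Trbv23 (0.833%), the pseudogene Trbv24 (0.477%), Trbv30 (0.371%) and Trbv4 (0.0926%) were the least counted of the tested segments. The 13 pseudogenes together held 0.556% to 0.833% of Trbv counts in libraries with an age.

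Trbv13-2, the most counted V segment, had 119, 119 and 121 CPM in young KO-labelled libraries. It had 96.8, 94.9, 96.9 and 102 CPM in old WT libraries, and 108, 108 and 109 CPM in young WT libraries. Trbv2 had 91.4, 101 and 98.3 CPM in young KO-labelled libraries, 79.2, 76.9, 69.7 and 79.8 CPM in old WT libraries, and 82.2, 84.6 and 95.6 CPM in young WT libraries. Trbv3, its neighbour on the chromosome, had 91.2, 87.05 and 93.5 CPM in young KO-labelled libraries, 73.3, 74.1, 64.9 and 84.4 CPM in old WT libraries, and 80.8, 81.2 and 89.7 CPM in young WT libraries. Old WT replicate 3 was the lowest of the 10 libraries in Trbv2 and Trbv3, and these segments overlapped between the young groups. Trbv16 had 85.7, 85.2 and 83.1 CPM in young KO-labelled libraries, 61.5, 64.6, 65.7 and 70.99 CPM in old WT libraries, and 75.7, 81.9 and 85.6 CPM in young WT libraries. Trbv12-2 had 87.3, 81.3 and 83.2 CPM in young KO-labelled libraries, 60.2, 68.4, 53.3 and 71.96 CPM in old WT libraries, and 71.1, 75.5 and 81.9 CPM in young WT libraries. Trbv13-1 had 76.4, 76.97 and 76.7 CPM in young KO-labelled libraries, 62.8, 63.6, 52.7 and 64.6 CPM in old WT libraries, and 69.01, 67.6 and 77.7 CPM in young WT libraries. Trbv16 and Trbv13-1 were lower in each old WT library than in each young WT library, and Trbv12-2 overlapped between those groups.

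The effective number of Trbv segments was taken as the exponential of the Shannon entropy of their shares. It was 17.2 ± 0.023 in young KO-labelled (SD, n = 3), 17.1 ± 0.29 in old WT (n = 4) and 17.3 ± 0.10 in young WT libraries (n = 3). The chi-square of Trbv counts between replicates, divided by its degrees of freedom and near 1 for counting error alone, was 1.36 in young KO-labelled, 2.86 in old WT and 1.46 in young WT libraries. In the set without an age it was 5.44 in KO-labelled and 14.4 in WT libraries. There WT replicate 3 stood apart, with 17.8 against replicate 1 and 21.5 against replicate 2, while replicates 1 and 2 gave 3.17. In that library Trbv14 held 5.48% of Trbv counts (4.11% and 4.31% in replicates 1 and 2), Trbv17 4.38% (2.50% and 2.79%) and Trbv26 5.19% (3.06% and 3.02%). Trbv13-1 (4.78%, against 6.48% and 6.85%) and Trbv13-3 (1.78%, against 3.15% and 3.30%) were low in it. Counting error gives a segment of at least 1% a half-width of 0.185 to 0.722 percentage points in a library with an age (exact 95% binomial interval), and such intervals cover counting error only. An old WT library, replicate 3, had 9.18% of entries not uniquely aligned, against 4.46% to 5.36% in the other 9 libraries with an age.

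**Figure D2:**
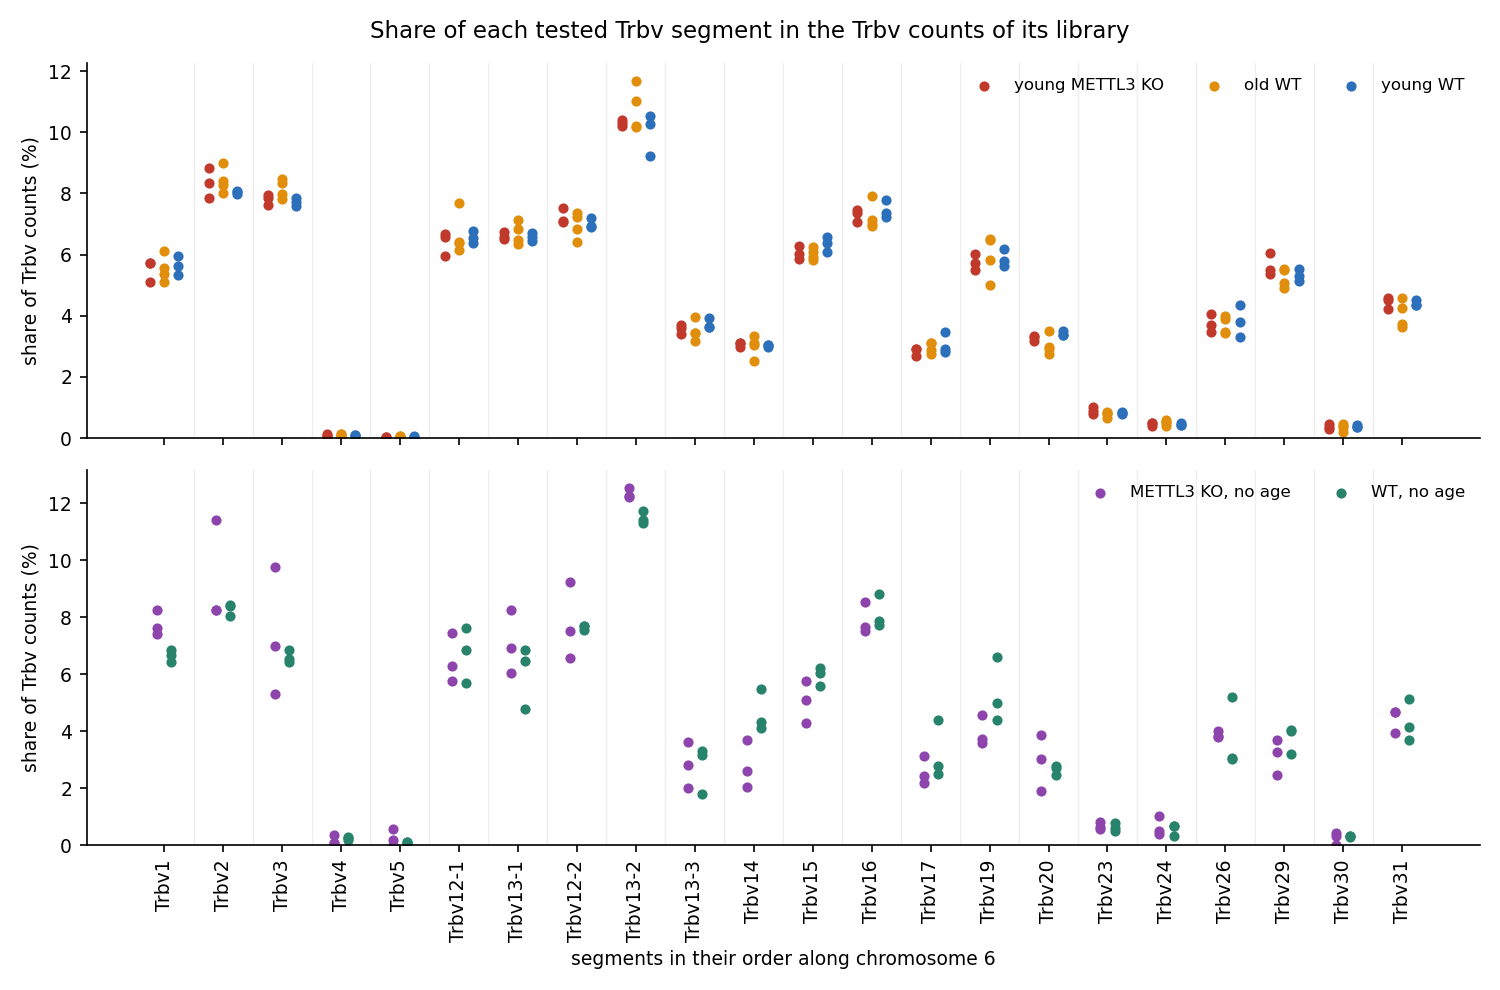
Share of each tested Trbv segment in the Trbv counts of its library (percent), in the libraries with an age (top) and without one (bottom), each point 1 library. Trbv13-2 is the most counted V segment in both sets (9.22% to 11.7% with an age). The points of the groups of a set lie close together for most segments.

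The remaining V segments of the libraries with an age filled the middle of the range. Trbv12-1 had 76.6, 67.98 and 78.5 CPM in young KO-labelled libraries, 56.2, 59.7, 51.04 and 76.7 CPM in old WT libraries, and 65.6, 68.5 and 79.99 CPM in young WT libraries. Trbv19 had 66.7, 62.8 and 70.6 CPM in young KO-labelled libraries, 44.2, 60.2, 53.9 and 58.1 CPM in old WT libraries, and 63.9, 59.1 and 68.7 CPM in young WT libraries. Trbv1, the segment farthest upstream, had 66.7, 58.4 and 67.2 CPM in young KO-labelled libraries, 48.9, 47.6, 50.9 and 53.6 CPM in old WT libraries, and 54.8, 59.1 and 70.4 CPM in young WT libraries. Trbv1 was lower in every old WT library than in every young WT library. Trbv29 had 62.4, 69.1 and 64.6 CPM in young KO-labelled libraries, 48.3, 51.5, 42.2 and 49.1 CPM in old WT libraries, and 54.6, 53.8 and 65.6 CPM in young WT libraries. Trbv26 had 42.97, 46.3 and 40.8 CPM in young KO-labelled libraries, 30.4, 37.1, 28.5 and 38.8 CPM in old WT libraries, and 34.2, 39.8 and 51.4 CPM in young WT libraries. Trbv13-3 had 43.1, 38.7 and 42.2 CPM in young KO-labelled libraries, 28.04, 32.1, 28.5 and 39.6 CPM in old WT libraries, and 40.3, 38.2 and 43.02 CPM in young WT libraries. Old WT values were the lowest of the 3 groups on average in each of these segments. Trbv14 had 34.7, 35.5 and 36.6 CPM in young KO-labelled libraries, 29.3, 28.4, 20.8 and 31.1 CPM in old WT libraries, and 31.4, 31.4 and 36.2 CPM in young WT libraries. Trbv17 had 33.8, 33.2 and 31.6 CPM in young KO-labelled libraries, 24.1, 26.8, 25.8 and 31.1 CPM in old WT libraries, and 28.9, 36.3 and 34.7 CPM in young WT libraries. Trbv23 had 10.4, 9.09 and 11.9 CPM in young KO-labelled libraries, 7.62, 7.53, 5.59 and 8.02 CPM in old WT libraries, and 8.86, 8.32 and 9.67 CPM in young WT libraries. Replicate 3 was the lowest old WT library in Trbv14 and Trbv23. Trbv24, a pseudogene by annotation, had 5.76, 5.83 and 4.77 CPM in young KO-labelled libraries, 4.49, 4.66, 3.33 and 5.99 CPM in old WT libraries, and 4.38, 4.41 and 5.94 CPM in young WT libraries. Trbv30 had 3.47, 5.24 and 4.28 CPM in young KO-labelled libraries, 1.86, 3.67, 2.901 and 4.44 CPM in old WT libraries, and 3.89, 3.91 and 5.24 CPM in young WT libraries. Trbv4 had 0.794, 0.692 and 1.39 CPM in young KO-labelled libraries, 1.07, 1.09, 0.322 and 1.35 CPM in old WT libraries, and 0.973, 0.802 and 1.11 CPM in young WT libraries. At these levels the groups overlapped.

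The Trbj counts of the libraries with an age were unevenly spread over the segments. Trbj1-5 held 19.7% of Trbj counts on average, Trbj1-3 17.5%, Trbj1-4 14.9%, Trbj1-7 9.69%, Trbj2-7 8.78% and Trbj1-6 8.33%. Trbj1-7 and Trbj1-6, in which no motif was found, were thus among the 6 most counted. The least counted were Trbj2-5 (0.0822% to 0.527%), Trbj2-4 (0.407% to 0.883%) and Trbj1-1 (0.476% to 2.62%). The annotated exons of Trbj segments are 46 to 54 bases long, the longest being Trbj1-3, whose sequence above has 50 bases. Length therefore moved these shares little: per length, Trbj1-5 had 20.3% and Trbj1-3 16.7% in young WT libraries. Counts ran from 916 to 1680 per library over all Trbj segments, which sets a half-width of 0.625 to 2.62 percentage points on a share of at least 1%.

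Trbj1-5 had 30.7, 19.8 and 26.95 CPM in young KO-labelled libraries, 17.7, 23.7, 19.2 and 35.1 CPM in old WT libraries, and 25.4, 27.7 and 21.96 CPM in young WT libraries. Trbj1-3 had 26.9, 22.6 and 26.8 CPM in young KO-labelled libraries, 14.4, 21.01, 13.6 and 28.98 CPM in old WT libraries, and 20.4, 25.1 and 21.5 CPM in young WT libraries. Trbj1-4 had 17.8, 18.3 and 21.5 CPM in young KO-labelled libraries, 10.8, 19.7, 15.6 and 26.4 CPM in old WT libraries, and 16.7, 20.3 and 20.05 CPM in young WT libraries. In these 3, old WT replicates 1 and 3 lay below every young WT library, and replicates 2 and 4 within or above the range of young WT libraries. Trbj1-7 had 13.8, 10.6 and 14.6 CPM in young KO-labelled libraries, 9.67, 11.5, 8.49 and 18.5 CPM in old WT libraries, and 11.1, 12.7 and 10.98 CPM in young WT libraries. Trbj2-7 had 13.5, 10.2 and 12.6 CPM in young KO-labelled libraries, 8.79, 10.1, 8.06 and 13.5 CPM in old WT libraries, and 9.64, 12.6 and 10.8 CPM in young WT libraries. Trbj1-6 had 10.9, 9.68 and 14.4 CPM in young KO-labelled libraries, 7.82, 10.4, 8.81 and 13.3 CPM in old WT libraries, and 8.95, 10.4 and 9.37 CPM in young WT libraries. The young groups overlapped in Trbj2-7 and Trbj1-7, and Trbj1-6 was highest in a young KO-labelled library.

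The other Trbj segments were counted less. Trbj1-2 had 7.54, 4.55 and 4.87 CPM in young KO-labelled libraries, 3.42, 6.24, 4.298 and 7.53 CPM in old WT libraries, and 4.77, 3.81 and 5.44 CPM in young WT libraries. Trbj2-1 had 6.05, 4.84 and 5.37 CPM in young KO-labelled libraries, 2.64, 4.56, 3.55 and 4.15 CPM in old WT libraries, and 4.67, 4.31 and 4.33 CPM in young WT libraries. Trbj2-2 had 5.56, 5.04 and 5.67 CPM in young KO-labelled libraries, 4.59, 2.87, 4.19 and 4.25 CPM in old WT libraries, and 3.504, 4.11 and 5.34 CPM in young WT libraries. Trbj2-1 was lowest in old WT replicate 1, and was higher in each young KO-labelled than in each young WT library. Trbj2-3 had 6.85, 5.43 and 5.57 CPM in young KO-labelled libraries, 5.37, 3.07, 5.05 and 4.44 CPM in old WT libraries, and 4.09, 5.21 and 5.84 CPM in young WT libraries. Trbj2-6, the pseudogene, had 4.96, 3.95 and 5.47 CPM in young KO-labelled libraries, 3.71, 4.46, 3.87 and 4.15 CPM in old WT libraries, and 4.57, 4.21 and 5.14 CPM in young WT libraries. Trbj2-4 had 0.595, 0.889 and 1.29 CPM in young KO-labelled libraries, 0.684, 0.694, 0.645 and 0.869 CPM in old WT libraries, and 0.876, 0.902 and 0.504 CPM in young WT libraries. The groups overlapped in these 3. Of the D segments, 28 to 45 counts fell on both together in a library with an age. Trbd1 had 2.58, 1.48 and 2.39 CPM in young KO-labelled libraries, 2.34, 1.29, 3.12 and 1.74 CPM in old WT libraries, and 2.04, 1.904 and 1.91 CPM in young WT libraries. Trbd2 had 1.49, 1.98 and 1.09 CPM in young KO-labelled libraries, 2.05, 2.18, 1.29 and 0.966 CPM in old WT libraries, and 1.65, 2.205 and 1.61 CPM in young WT libraries. A share of either D segment carries a half-width of 14.7 to 18.6 percentage points in a single library, so small shifts between them were not resolved. Trbc1 had 1045, 1043 and 1049 CPM in young KO-labelled libraries, 1020, 861, 974 and 921 CPM in old WT libraries, and 870.2, 965 and 1131 CPM in young WT libraries. Trbc2 had 1129, 1013 and 1203 CPM in young KO-labelled libraries, 1053, 974, 1111 and 997 CPM in old WT libraries, and 1056, 951 and 1159 CPM in young WT libraries. Trbc1 made up 46.6% to 50.7% of Trbc counts in young KO-labelled, 46.7% to 49.2% in old WT and 45.2% to 50.4% in young WT libraries, and the groups overlapped, where 5.78% of all genes were higher and 1.86% lower in old WT, and 1.19% higher and 4.28% lower in young KO-labelled libraries, when scaled by the Trbc total.

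**Figure D3:**
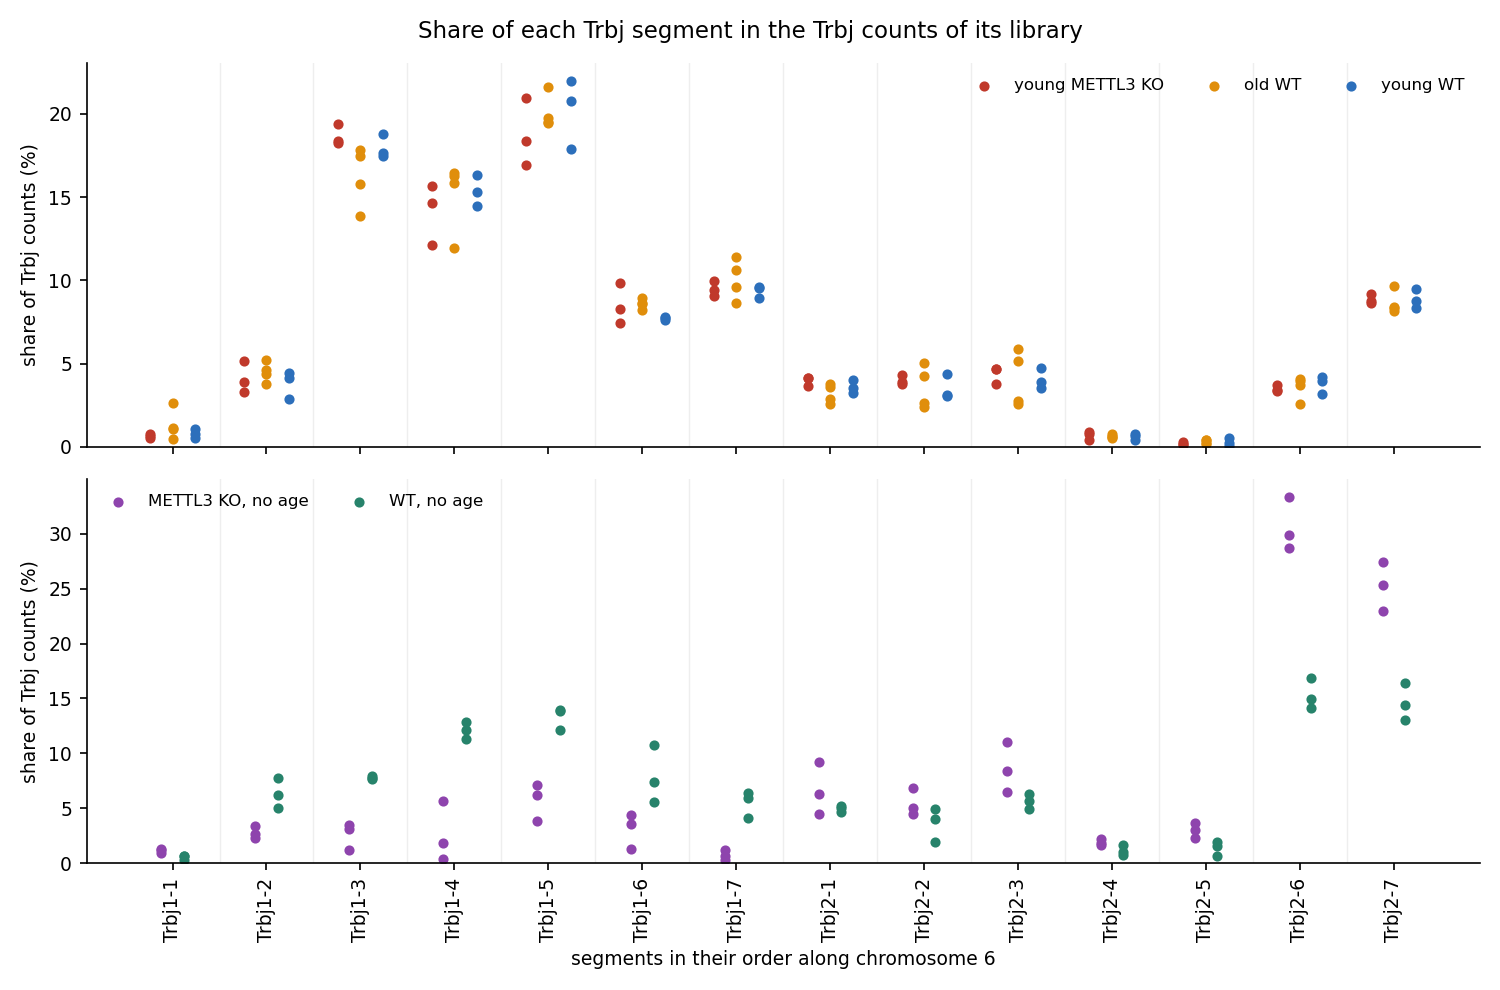
Share of each Trbj segment in the Trbj counts of its library (percent), in the libraries with an age (top) and without one (bottom), each point 1 library. In the set without an age the Trbj1-2 to Trbj1-7 points of KO-labelled libraries lie below those of WT libraries, and the Trbj2-6 points (28.7% to 33.3% against 14.1% to 16.8%) lie above them.

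The comparison of young KO-labelled with young WT libraries asked whether the segments differ with the METTL3 genotype at a young age. No member was called: 0 of 37 passed edgeR's quasi-likelihood test with Benjamini-Hochberg adjustment at 0.05, where the share called of all 14228 genes tested was 0%. None of the 37 had an unadjusted p under 0.05, against 88 of all genes, and DESeq2 and limma-voom called 0 as well. The Trbv segments had log2 fold changes between -0.017 and 0.23 with a median of 0.063, 18 of 21 above 0, and the median of all genes was -0.00055. The Trbj segments ranged from -0.11 to 0.33 with a median of 0.18, 11 of 12 above 0. The largest was Trbj2-2 at 0.33 ± 0.24, adjusted p = 1, and Trbv13-2, the most abundant, had 0.14 ± 0.07, adjusted p = 1. Levels of 1 Trbv (Trbv13-2) and 1 Trbj (Trbj2-1) segment were higher without overlap, against 4.55% of all genes. Shares overlapped between the groups for 20 of 21 Trbv and 12 of 12 Trbj segments. Of these, Trbv20 alone did not overlap, at 3.33%, 3.31% and 3.16% in young KO-labelled libraries and 3.49%, 3.38% and 3.37% in young WT libraries (exact permutation test, two-sided, p = 0.1, the smallest that 3 against 3 can give). Trbv22, too low to be tested (at most 8 counts in a library), had a higher share without overlap. Its mean was 0.0571% in young KO-labelled and 0.0244% in young WT libraries. Scaled by the Trbv total, 9.52% of all genes were lower and 1.27% higher without overlap, and scaled by the Trbj total 5.27% and 0.611%. Levels in these libraries stand for the genotype only as labelled, given the Mettl3 values above.

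The comparison of old with young WT libraries asked whether the segments differ with age, and it shares its young WT libraries with the comparison above. The Trbv segments leaned to lower levels in old WT libraries: 20 of 21 had a log2 fold change below 0, with a median of -0.28 and a range of -0.43 to 0.0098, where the median of all genes was 0.0063. None of the 37 members was called by edgeR's quasi-likelihood test with Benjamini-Hochberg adjustment, against 0.253% of all genes (0.127% higher and 0.127% lower). At an unadjusted p under 0.05 there were 13 Trbv segments, and 1716 of 14228 genes. The smallest adjusted p was that of Trbv31, at -0.39 ± 0.09, adjusted p = 0.147; DESeq2 called this segment (log2 fold change -0.39, adjusted p = 0.0184) and no other member, and limma-voom called 0. Trbv31, the inverted segment, had 49.2, 51.6 and 53.7 CPM in young KO-labelled libraries, 40.3, 34.8, 35.2 and 36.1 CPM in old WT libraries, and 46.4, 45.7 and 51.4 CPM in young WT libraries. Trbv20 had 38.7, 37.8 and 37.2 CPM in young KO-labelled libraries, 26.3, 32.6, 24.2 and 27.5 CPM in old WT libraries, and 35.9, 35.5 and 39.9 CPM in young WT libraries. Trbv15 had 73.1, 67.1 and 70.9 CPM in young KO-labelled libraries, 52.1, 56.6, 52.01 and 57.95 CPM in old WT libraries, and 65.6, 63.9 and 77.8 CPM in young WT libraries. In these 3 segments every old WT library lay below every young WT library. That held for 11 of 21 Trbv segments, against 4.13% of all genes, with 0 of 21 higher without overlap against 5.65%, and for the summed Trbv level, whose mean of 909 ± 71.1 CPM in old WT (SD, n = 4) was a log2 ratio of -0.26 to the 1088 ± 83.2 CPM in young WT libraries (n = 3). Without old WT replicate 3 the log2 ratio was -0.22, and edgeR again called 0 members.

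Relative to Trbc the old WT libraries were uneven. Trbv counts per 100 Trbc counts were 53.5, 55.6 and 52.2 in young KO-labelled libraries, 42.4, 50.7, 39.8 and 51.9 in old WT libraries, and 53.5, 54.8 and 51.7 in young WT libraries. Old WT replicates 1 and 3 were low, and replicates 2 and 4 fell at or near the young values. The same replicates were low at the alpha locus, where Trav counts per 100 Trac counts were 59.5, 54.1 and 53.9 in young KO-labelled libraries, 39.3, 55.2, 37.9 and 54.5 in old WT libraries, and 58.6, 59.2 and 54.5 in young WT libraries. Traj counts per 100 Trac counts in old WT libraries were 11.6, 31.3, 9.61 and 25.5, against 25.7, 29.5 and 26.1 in young WT libraries. Rag1, which with Rag2 cuts at the segments, had 3482 and 3728 CPM in old WT replicates 1 and 3, and 6395 and 6590 CPM in replicates 2 and 4, against 7036, 5462 and 5526 CPM in young WT libraries. The summed B cell markers (8 genes) ranged from 487 to 2101 CPM in old WT and from 439 to 495 CPM in young WT libraries, and the summed myeloid and dendritic markers (9 genes) from 58.5 to 627 CPM in old WT and from 42.3 to 59.7 CPM in young WT libraries. Old WT replicate 3 was the highest in both lists, and without it (a check chosen after seeing the data) the highest old WT sums were 998 CPM for B cell and 102.2 CPM for myeloid and dendritic markers. The summed mature single-positive markers (6 genes) ranged from 227 to 399.8 CPM in old WT and from 222 to 226 CPM in young WT libraries, and the highest was 267 CPM without old WT replicate 3. The summed gamma-delta and NK markers (8 genes) ranged from 71.4 to 186 CPM in old WT and from 102 to 120.3 CPM in young WT libraries, and the summed double-negative markers (7 genes) from 54.5 to 140.2 CPM in old WT and from 47.95 to 62.7 CPM in young WT libraries. The median log2 fold changes of the tested genes were 2.74 for B cell, 1.83 for myeloid and dendritic, 0.84 for mature single-positive, 0.93 for gamma-delta and NK, and 0.47 for double-negative markers, and edgeR called none of these genes. Their part in the lower Trbv levels was not tested. Trbj segments showed no common direction with age: 8 of 12 were below 0, with a median of -0.093 and a range of -0.25 to 0.55. No tested Trbv share stood apart with age, since all 21 overlapped between old and young WT libraries. Scaled by the Trbv total, 0.492% of all genes were lower without overlap and 22.2% higher. Trbv6, too low to be tested (3 to 9 counts in a library), had a higher share without overlap. Its mean was 0.0892% in old WT and 0.0465% in young WT libraries (exact permutation test, two-sided, p = 0.0571). Among Trbj shares Trbj1-6 was higher without overlap, at 8.59%, 8.67%, 8.95% and 8.21% in old WT and 7.74%, 7.83% and 7.64% in young WT libraries (exact permutation test, two-sided, p = 0.0571, the smallest that 4 against 3 can give), against 2.76% of all genes scaled by the Trbj total, with 0.977% lower.

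The comparison of KO-labelled with WT libraries in the set without an age asked the same question of genotype, and here the V and J segments were lower by several fold. Of 39 members tested, 33 were called lower and 0 higher by edgeR's quasi-likelihood test with Benjamini-Hochberg adjustment (KO-labelled over WT, n = 3 each). In this comparison 53.9% of all 16432 genes were called, 24% lower and 29.9% higher, and the log2 fold changes of all genes had quartiles of -0.61, 0.079 and 1.09. The called members were 21 of 22 Trbv and 12 of 13 Trbj segments. The Trbv segments had a median of -1.78 and a range of -2.53 to -0.80, and the Trbj segments a median of -1.73 and a range of -4.95 to -1.15. Neither D nor C segments were called. Every KO-labelled library lay below every WT library in 21 of 22 Trbv and 12 of 13 Trbj segments, against 29.5% of all genes, and 34.3% of all genes were higher without overlap. Without WT replicate 3 the count was 32 members called.

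The most counted V segments fell by a similar amount. Trbv13-2 had 24.3, 33.8 and 39.8 CPM in KO-labelled libraries, against 118, 101 and 106 CPM in WT libraries, a log2 fold change of -1.73 ± 0.19, adjusted p = 0.000105. Trbv2 had 22.1, 22.9 and 26.8 CPM in KO-labelled libraries, against 84.3, 71.6 and 78.6 CPM in WT libraries, a log2 fold change of -1.71 ± 0.17, adjusted p = 6.15e-05. Trbv3 had 18.9, 19.3 and 17.2 CPM in KO-labelled libraries, against 68.8, 58.1 and 60.4 CPM in WT libraries, a log2 fold change of -1.75 ± 0.17, adjusted p = 6.11e-05. The levels in KO-labelled libraries ranged from 17.2 to 39.8 CPM in these 3, and those in WT libraries from 58.1 to 118 CPM. Trbv16 had 14.9, 20.7 and 27.7 CPM in KO-labelled libraries, against 88.2, 69.99 and 72.4 CPM in WT libraries, a log2 fold change of -1.86 ± 0.23, adjusted p = 0.000142. Trbv12-2 had 12.7, 20.7 and 30.00 CPM in KO-labelled libraries, against 75.6, 68.5 and 72.1 CPM in WT libraries, a log2 fold change of -1.77 ± 0.26, adjusted p = 0.000329. Trbv13-1 had 11.7, 19.1 and 26.8 CPM in KO-labelled libraries, against 64.9, 60.95 and 44.8 CPM in WT libraries, a log2 fold change of -1.57 ± 0.27, adjusted p = 0.000797. KO-labelled replicate 1 was the lowest of its group in Trbv16, Trbv12-2 and Trbv13-1. Trbv31 had 7.597, 12.9 and 15.2 CPM in KO-labelled libraries, against 41.6, 45.8 and 34.6 CPM in WT libraries, a log2 fold change of -1.77 ± 0.25, adjusted p = 0.000279. The inverted segment thus stood at the middle of the Trbv range.

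The V segments with the largest falls were Trbv14, Trbv19 and Trbv4. Trbv14 had 3.96, 10.2 and 8.46 CPM in KO-labelled libraries, against 41.1, 38.4 and 51.4 CPM in WT libraries, a log2 fold change of -2.53 ± 0.30, adjusted p = 0.000132. Trbv19 had 6.94, 10.3 and 14.8 CPM in KO-labelled libraries, against 49.96, 39.1 and 61.9 CPM in WT libraries, a log2 fold change of -2.23 ± 0.28, adjusted p = 0.000152. Trbv4, whose exons overlap another gene, had 0.165, 0.963 and 0.302 CPM in KO-labelled libraries, against 1.83, 2.100 and 2.54 CPM in WT libraries, a log2 fold change of -2.18 ± 0.66, adjusted p = 0.0154. WT replicate 3 was the highest WT library in all 3. Trbv17 had 4.71, 6.04 and 10.2 CPM in KO-labelled libraries, against 25.1, 24.9 and 41.1 CPM in WT libraries, a log2 fold change of -2.11 ± 0.31, adjusted p = 0.000345. Trbv29 had 7.18, 6.83 and 10.7 CPM in KO-labelled libraries, against 40.04, 36.01 and 29.9 CPM in WT libraries, a log2 fold change of -2.10 ± 0.23, adjusted p = 0.000101. Trbv15 had 8.34, 14.1 and 18.7 CPM in KO-labelled libraries, against 62.3, 49.9 and 56.7 CPM in WT libraries, a log2 fold change of -2.03 ± 0.26, adjusted p = 0.000173. In Trbv17, Trbv29 and Trbv15 the lowest WT library had more than 2 times the level of the highest KO-labelled library.

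The other called V segments followed. Trbv1 had 14.8, 22.9 and 24.03 CPM in KO-labelled libraries, against 64.3, 59.4 and 64.2 CPM in WT libraries, a log2 fold change of -1.61 ± 0.20, adjusted p = 0.000157. Trbv12-1 had 11.1, 20.6 and 20.4 CPM in KO-labelled libraries, against 68.6, 67.95 and 53.3 CPM in WT libraries, a log2 fold change of -1.86 ± 0.24, adjusted p = 0.000175. Trbv13-3 had 7.02, 5.52 and 9.14 CPM in KO-labelled libraries, against 31.6, 29.4 and 16.7 CPM in WT libraries, a log2 fold change of -1.84 ± 0.29, adjusted p = 0.000464. KO-labelled replicate 1 was lowest in Trbv1 and Trbv12-1 and replicate 2 in Trbv13-3. Trbv26 had 7.35, 11.1 and 12.4 CPM in KO-labelled libraries, against 30.7, 26.8 and 48.6 CPM in WT libraries, a log2 fold change of -1.78 ± 0.28, adjusted p = 0.000426. Trbv20 had 5.86, 10.7 and 6.12 CPM in KO-labelled libraries, against 24.8, 24.2 and 26.1 CPM in WT libraries, a log2 fold change of -1.73 ± 0.26, adjusted p = 0.000355. Trbv23 had 1.24, 1.58 and 2.65 CPM in KO-labelled libraries, against 6.204, 6.81 and 4.69 CPM in WT libraries, a log2 fold change of -1.69 ± 0.39, adjusted p = 0.00387. The log2 fold changes of Trbv26, Trbv20 and Trbv23 differed from each other by less than the SE of each. Trbv24, the pseudogene, had 0.991, 2.802 and 1.28 CPM in KO-labelled libraries, against 6.73, 2.86 and 6.38 CPM in WT libraries, a log2 fold change of -1.66 ± 0.49, adjusted p = 0.0139. Trbv30, with no count in a KO-labelled library, had 0, 1.23 and 1.06 CPM in KO-labelled libraries, against 3.396, 2.55 and 3.06 CPM in WT libraries, a log2 fold change of -1.97 ± 0.75, adjusted p = 0.0439. The calls of Trbv4, Trbv24 and Trbv30 were lost in some alternatives: that of Trbv4 without WT replicate 3 (adjusted p = 0.0551), that of Trbv24 without KO-labelled replicate 1 (0.0507), and that of Trbv30 in 5 alternatives (up to 0.0899, without WT replicate 3). Trbv5 was the only tested V segment that was not called, at 1.07, 0.525 and 0.0756 CPM in KO-labelled libraries, against 0.9797, 0.827 and 1.11 CPM in WT libraries (log2 fold change -0.80 ± 0.75, adjusted p = 0.39).

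The segments of the Trbj1 cluster showed the largest differences of the locus. All 6 tested were called lower, with a median log2 fold change of -3.60 and a range of -4.95 to -3.31, and all 6 lay within the lowest 0.584% of the log2 fold changes of all genes. Trbj1-7 had 0.0826, 0.613 and 0.302 CPM in KO-labelled libraries, against 9.34, 11.8 and 9.96 CPM in WT libraries, a log2 fold change of -4.95 ± 0.49, adjusted p = 6.32e-05. Trbj1-4 had 0.495, 2.98 and 0.151 CPM in KO-labelled libraries, against 25.5, 25.6 and 18.95 CPM in WT libraries, a log2 fold change of -4.31 ± 0.64, adjusted p = 0.000443. Trbj1-3 had 0.3303, 1.84 and 1.44 CPM in KO-labelled libraries, against 17.96, 15.2 and 12.05 CPM in WT libraries, a log2 fold change of -3.64 ± 0.45, adjusted p = 0.000144. Trbj1-7, in which no motif was found, had at most 0.613 CPM in a KO-labelled library. Trbj1-6 had 0.991, 0.7004 and 2.04 CPM in KO-labelled libraries, against 16.7, 11.1 and 16.7 CPM in WT libraries, a log2 fold change of -3.55 ± 0.39, adjusted p = 9.81e-05. Trbj1-5 had 1.07, 3.76 and 2.87 CPM in KO-labelled libraries, against 31.3, 24.1 and 21.7 CPM in WT libraries, a log2 fold change of -3.32 ± 0.37, adjusted p = 0.0001. Trbj1-2 had 0.743, 1.23 and 1.59 CPM in KO-labelled libraries, against 11.3, 12.3 and 12.05 CPM in WT libraries, a log2 fold change of -3.31 ± 0.34, adjusted p = 7.27e-05. KO-labelled replicate 2 was the highest of its group in Trbj1-4 and Trbj1-5. Trbj1-1 was too low to be tested, with 0.248, 0.613 and 0.605 CPM in KO-labelled libraries, against 1.37, 0.636 and 1.04 CPM in WT libraries. Its share of Trbj counts was higher without overlap, with a mean of 1.12% in KO-labelled and 0.532% in WT libraries (exact permutation test, two-sided, p = 0.1, the smallest that 3 against 3 can give), and it is not among the 13 tested.

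The Trbj2 segments had smaller log2 fold changes, and the difference from the Trbj1 cluster was tested only through the shares. Of 7 tested, 6 were called lower, with a median of -1.49. Trbj2-7 had 7.02, 12.2 and 12.8 CPM in KO-labelled libraries, against 36.97, 28.8 and 20.4 CPM in WT libraries, a log2 fold change of -1.43 ± 0.28, adjusted p = 0.00166. Trbj2-6, the pseudogene, had 9.25, 15.8 and 13.4 CPM in KO-labelled libraries, against 33.6, 33.5 and 22.01 CPM in WT libraries, a log2 fold change of -1.21 ± 0.25, adjusted p = 0.00213. Trbj2-3 had 3.06, 4.47 and 3.02 CPM in KO-labelled libraries, against 12.7, 12.5 and 7.62 CPM in WT libraries, a log2 fold change of -1.64 ± 0.32, adjusted p = 0.00141. Trbj2-6 and Trbj2-7 were the most counted J segments of KO-labelled libraries. Trbj2-2 had 1.899, 2.36 and 2.34 CPM in KO-labelled libraries, against 11.04, 7.95 and 2.93 CPM in WT libraries, a log2 fold change of -1.73 ± 0.46, adjusted p = 0.00792. Trbj2-1 had 1.24, 3.33 and 4.31 CPM in KO-labelled libraries, against 10.5, 10.3 and 7.81 CPM in WT libraries, a log2 fold change of -1.68 ± 0.40, adjusted p = 0.00455. Trbj2-4 had 0.495, 1.14 and 0.756 CPM in KO-labelled libraries, against 3.66, 1.46 and 1.63 CPM in WT libraries, a log2 fold change of -1.49 ± 0.58, adjusted p = 0.0487. WT replicate 3 was the lowest WT library in Trbj2-1, Trbj2-2, Trbj2-3, Trbj2-6 and Trbj2-7. The call of Trbj2-4 was lost in 8 alternatives, with adjusted p-values of up to 0.271 (without WT replicate 1). Trbj2-5 was not called, at 0.826, 1.93 and 1.06 CPM in KO-labelled libraries, against 3.53, 3.88 and 1.04 CPM in WT libraries (log2 fold change -1.15 ± 0.58, adjusted p = 0.113); without WT replicate 3 it was called (-1.60, adjusted p = 0.0295). Trbv5, Trbv6, Trbv22, Trbj1-1 and Trbj2-5 are named here after their values were seen, as are Rag1 in the age comparison and Ptcra.

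The makeup of the Trbj counts therefore differed as well as their level, and whether rearranged or germline transcripts gave them was not tested. The Trbj1 share of Trbj counts was 14.3, 22.1 and 19.3% in KO-labelled libraries and 50.3, 50.6 and 59.3% in WT libraries, a difference of means of -34.8 percentage points. Among the 13 tested Trbj segments, 6 had a lower share without overlap and 4 a higher one, where 0.566% of all genes were lower and 87.3% higher when scaled by the Trbj total. Trbj1-7 held 0.298%, 1.16% and 0.648% of Trbj counts in KO-labelled and 4.14%, 5.94% and 6.39% in WT libraries. Trbj1-4 held 1.79%, 5.62% and 0.324% in KO-labelled and 11.3%, 12.9% and 12.2% in WT libraries. Trbj2-6 held 33.3%, 29.9% and 28.7% in KO-labelled and 14.9%, 16.8% and 14.1% in WT libraries. Trbj2-7 held 25.3%, 23.0% and 27.4% in KO-labelled and 16.4%, 14.4% and 13.1% in WT libraries. So the pseudogene and its neighbour made up over 1 in 2 Trbj counts of KO-labelled libraries. With the Trbj total of each library as its library size, edgeR's quasi-likelihood test called the shares of Trbj1-3 (-1.55), Trbj1-4 (-2.20), Trbj1-5 (-1.20), Trbj1-6 (-1.36) and Trbj1-7 (-2.87) lower and that of Trbj2-6 (1.00) higher on the log2 scale, against 90.7% of all genes called on that scale. The adjusted p-values ran from 0.000228 to 0.0304. In the libraries with an age this fit called no member: for old against young WT libraries it called 5.33%, 0.155%, 0.162% and 0.281% of all genes with the Trbv, Trbd, Trbj and Trbc totals, and for young KO-labelled against young WT libraries 0.00703% with the Trbj total and 0% with the others.

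Among the Trbv segments 3 of 22 tested shares did not overlap between the groups. The effective number of Trbv segments was 16.5 ± 0.47 in KO-labelled and 17.0 ± 0.044 in WT libraries (SD, n = 3 each). Of these, 2 were higher and 1 lower, where 83.8% of all genes were higher and 0.962% lower when scaled by the Trbv total. Trbv13-2 held 12.5%, 12.2% and 12.3% of Trbv counts in KO-labelled and 11.7%, 11.4% and 11.3% in WT libraries. Trbv1 held 7.63%, 8.27% and 7.40% in KO-labelled and 6.42%, 6.67% and 6.85% in WT libraries. Trbv14 held 2.05%, 3.71% and 2.61% in KO-labelled and 4.11%, 4.31% and 5.48% in WT libraries, and it was the only Trbv share called with the Trbv total as library size (log2 -0.73, edgeR's quasi-likelihood test, adjusted p = 0.0495, against 88.3% of all genes). Each of these 3 differences had an exact two-sided permutation p of 0.1, the smallest that 3 against 3 can give. Trbv2 and Trbv3 reached 11.4% and 9.76% in KO-labelled replicate 1, above every other library of the set. Trbv6, too low to be tested, had a higher share without overlap, with a mean of 0.211% in KO-labelled and 0.0502% in WT libraries.

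**Figure D4:**
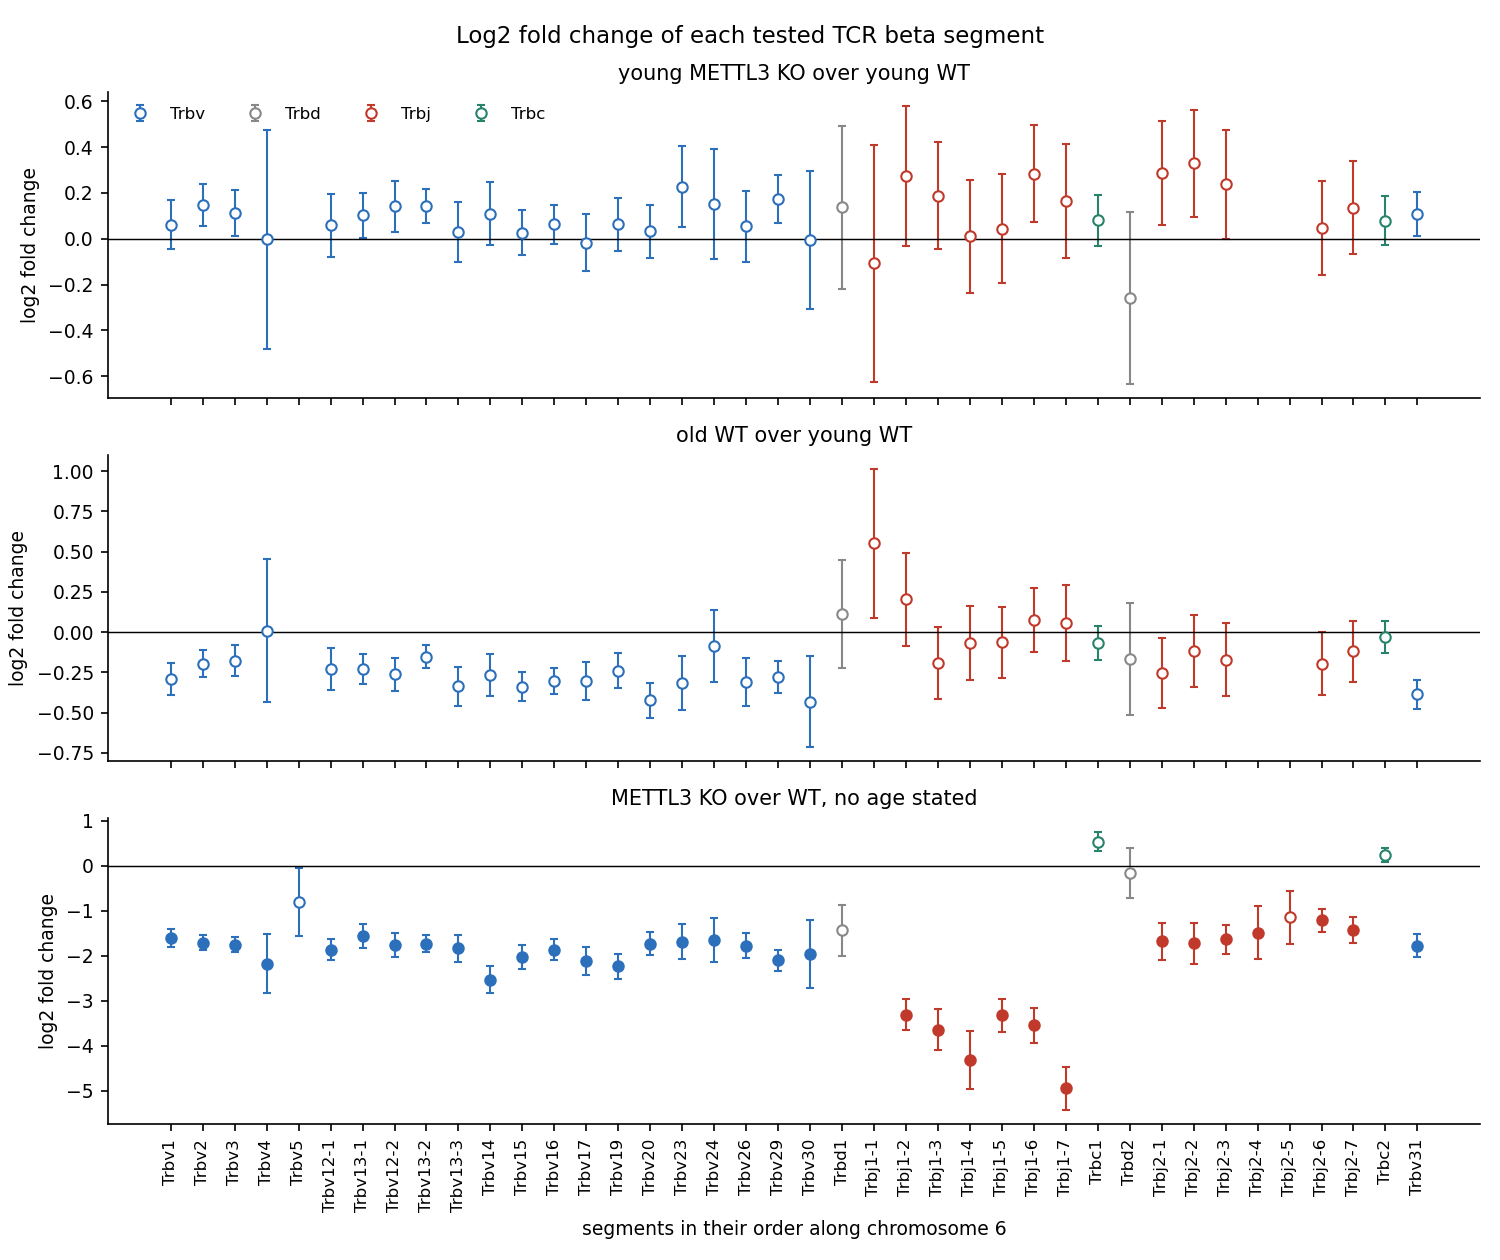
Log2 fold change of each tested segment (point, with its SE) in its order along chromosome 6, for young KO-labelled over young WT, old WT over young WT, and KO-labelled over WT libraries without an age; filled points passed the test. The vertical scales differ: the lowest panel reaches -4.95 at Trbj1-7, and its Trbj1 points lie below its Trbv and Trbj2 points.

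No D or C segment was called in the set without an age. Trbd1, the short segment in front of the Trbj1 cluster, had 0.661, 0.525 and 1.81 CPM in KO-labelled libraries, against 2.09, 2.35 and 3.78 CPM in WT libraries (log2 fold change -1.43 ± 0.57, adjusted p = 0.0501). It was called lower in 6 alternatives, and the log2 fold change was -2.26 (adjusted p = 0.00648) without KO-labelled replicate 3. Trbd2 had 1.24, 1.66 and 0.6801 CPM in KO-labelled libraries, against 1.18, 1.15 and 1.69 CPM in WT libraries (log2 fold change -0.17 ± 0.55, adjusted p = 0.814), and its groups overlapped. Both D segments together had 23, 25 and 33 counts in KO-labelled and 50, 55 and 84 counts in WT libraries, and the ratio of KO-labelled to WT means of Trbd counts per 100 Trbc counts was 0.408. Trbc1 had 1824, 1469.8 and 2635 CPM in KO-labelled libraries, against 1502, 1434 and 1160.0 CPM in WT libraries (log2 fold change 0.53 ± 0.22, adjusted p = 0.0572). Trbc1 was called higher in 6 alternatives, for instance with library size alone (0.61, adjusted p = 0.0259) and with DESeq2 (0.54, adjusted p = 0.0250). Trbc2 had 2330.5, 1933 and 2206 CPM in KO-labelled libraries, against 2048, 1822 and 1623 CPM in WT libraries (log2 fold change 0.24 ± 0.17, adjusted p = 0.251). The Trbc1 share overlapped between the groups, where 25.5% of all genes were higher and 38.1% lower when scaled by the Trbc total; edgeR called neither share with that total as library size (51.3% of all genes), nor a D share with the Trbd total (51.6%). Levels of both constant regions overlapped between the groups.

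Set against the constant regions, Trbv counts per 100 Trbc counts were 4.66, 8.12 and 6.71 in KO-labelled libraries and 28.2, 27.4 and 33.7 in WT libraries. Trbj counts per 100 Trbc counts were 0.668, 1.56 and 0.963 in KO-labelled libraries and 6.35, 6.12 and 5.601 in WT libraries. The ratio of KO-labelled to WT means was 0.218 for Trbv and 0.176 for Trbj, 0.0651 for Trbj1 and 0.303 for Trbj2. The alpha locus, with 128 Trav, 60 Traj and 1 Trac gene in the files, gave a similar picture of V and J against C. Trav counts per 100 Trac counts were 10.1, 13.1 and 9.16 in KO-labelled libraries and 33.9, 30.4 and 31.6 in WT libraries. Traj counts per 100 Trac counts were 2.18, 3.42 and 2.05 in KO-labelled libraries and 10.8, 10.9 and 12.3 in WT libraries. Trac itself had 639, 617 and 710.1 CPM in KO-labelled libraries, against 509, 486 and 553 CPM in WT libraries, and was not called (log2 fold change 0.34 ± 0.15, adjusted p = 0.0666).

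**Figure D5:**
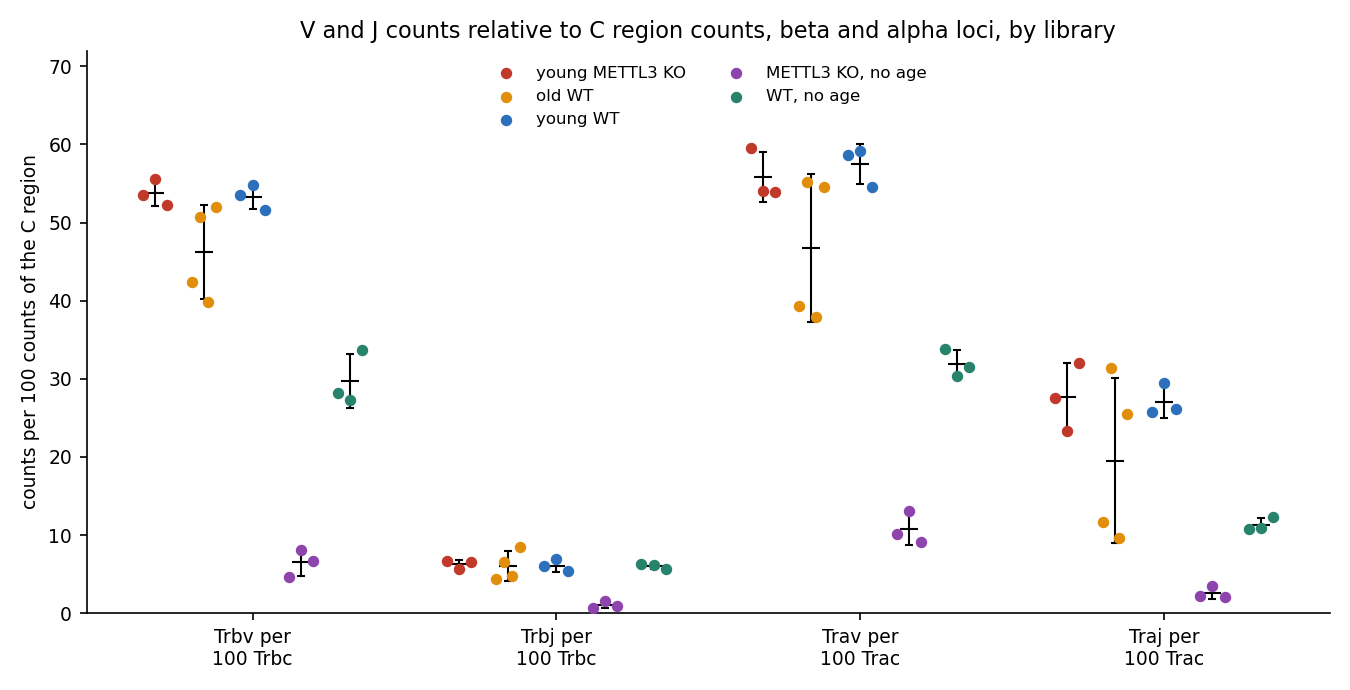
V and J counts per 100 counts of the constant region at the beta and the alpha locus, for each of the 16 libraries, with group mean and SD as bars. KO-labelled libraries without an age have 4.66 to 8.12 Trbv counts per 100 Trbc counts and their WT libraries 27.4 to 33.7, and old WT libraries fall into a low and a high pair.

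Whether the genotype difference was unequal in the sets was tested as an interaction over 12 libraries. Of 40 members tested, 31 were called, all 31 lower in the set without an age (20 Trbv and 11 Trbj), against 36.9% of all 16557 genes (17.7% lower and 19.2% higher). With class totals as library sizes 8 shares were called, those of Trbv14 and Trbj1-2 to Trbj1-7 lower and that of Trbj2-6 higher, against 79.3%, 33.4%, 83.8% and 32.3% of all genes with the Trbv, Trbd, Trbj and Trbc totals. The largest was Trbj1-7, with a difference of log2 fold changes of -4.94 ± 0.44, adjusted p = 8.69e-06 (edgeR's quasi-likelihood test). Trbv13-2 had a difference of -1.71 ± 0.19, adjusted p = 3.16e-05, and Trbc2 one of 0.32 ± 0.17, adjusted p = 0.155. Trbj1-1, which could be tested here, was not called (-0.76 ± 0.73, adjusted p = 0.441). The sets differ in more than the stated age: the share of reads not aligned was 52.1% to 52.2% in KO-labelled and 50.5% to 50.6% in WT libraries without an age, and 0.577% to 0.826% in the libraries with one. Set and age cannot be told apart.

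Among the recombination genes, a list of 13, 9 were called lower and 1 higher in KO-labelled libraries without an age, with a median log2 fold change of -0.59 (all genes 0.079), where 24% of all genes were called lower and 29.9% higher. Rag1 had 1201, 1071 and 959 CPM in KO-labelled libraries, against 6312, 5000.5 and 6243 CPM in WT libraries (-2.44 ± 0.19, edgeR adjusted p = 4.11e-05). Atm, a kinase of the break response, had 8.92, 15.6 and 9.14 CPM in KO-labelled libraries, against 55.1, 47.5 and 70.98 CPM in WT libraries (-2.37 ± 0.25), and Nhej1, an end-joining factor, was the gene called higher (0.92 ± 0.30). Lig4, the ligase that seals the joint, had 43.2, 59.8 and 39.6 CPM in KO-labelled libraries, against 145, 132 and 165 CPM in WT libraries (-1.63 ± 0.19). The other 6 called lower were Xrcc4 (-0.98), Rag2 (-1.25), Dntt (-0.68), Prkdc (-0.59), Dclre1c (-0.58) and Hmgb2 (-0.49). Of 13 transcription factors and architectural proteins of the locus, 10 were called lower and 0 higher, with a median of -0.78, against the same 24% and 29.9% of all genes. They were Tcf12 (-1.74), Rad21 (-1.35), Ets1 (-1.34), Ikzf1 (-1.17), Smc3 (-1.14), Smc1a (-0.82), Bcl11b (-0.78), Ctcf (-0.65), Tcf7 (-0.64) and Runx1 (-0.60). Of 6 receptor partners, Cd3e alone was called lower (-0.43 ± 0.14), against the same 24% of all genes. Ptcra, the pre-T alpha chain, had 0.11 ± 0.22. Of 28 other genes inside the locus 2 could be tested; 5830405F06Rik, which shares exons with Trbv4 and Trbv5, was called lower (-2.02 ± 0.38), and Prss2 was not (-0.81 ± 0.49). In young KO-labelled against young WT libraries the recombination list had a median of 0.0086 and the regulators one of -0.034, and in old against young WT libraries these medians were -0.12 and -0.033.

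Several measures moved with the genotype label in the set without an age, and their part in the lower V and J levels was not tested. Gene length was among them. By quartile of exon length, from short to long, the median log2 fold change of all genes was 0.58, 0.21, -0.04 and -0.30. The V and J segments fall in the shortest quartile, 12 to 2042.5 bases, and so do Trbc1 and Trbc2. The median of 0.58 in that quartile was opposite in sign to the medians of the V (-1.78) and J (-1.73) segments. Entries outside genes made up 11.8% to 15.03% in KO-labelled and 7.23% to 7.60% in WT libraries. Of 8 DP markers, Cd4 (-0.79), Rag1 and Rag2 were called lower, against 24% of all genes. The summed level of the 8 ranged from 7408 to 9115 CPM in KO-labelled and from 13459.8 to 14958 CPM in WT libraries. Of 8 B cell markers, 7 were called higher, against 29.9% of all genes, with a summed level of 737 to 1159 CPM in KO-labelled and 533 to 632 CPM in WT libraries. Of 9 myeloid and dendritic markers, 7 were tested and 3 called higher, against the same 29.9% of all genes, with sums of 88.3 to 138 CPM in KO-labelled and 32.7 to 52.9 CPM in WT libraries. Of 7 double-negative markers, 6 were tested and Kit (1.83) and Dtx1 (1.03) were called higher, against the same 29.9% of all genes. Their list had sums of 73.7 to 108 CPM in KO-labelled and 49.2 to 62.4 CPM in WT libraries. Mature single-positive markers had 1 gene called in each direction of 5 tested, gamma-delta and NK markers 1 of 7 higher, and epithelial markers 0 of 2. Of all genes, 24% were called lower and 29.9% higher.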

How the data were processed

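The submitters' processing notes name HISAT2 2.0.5 and the mm10 build. The authors deposited whole-number counts of reads per Ensembl gene for each library, with lines for reads outside genes, ambiguous, not aligned and not unique; these lines were left out of library sizes. No source used here gives the counting program, the annotation it read or whether strand was used. Identifiers were matched to symbols without their version, and segments were placed with GENCODE vM21.

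From the counts, edgeR 4.0.16 (R 4.3.3; filterByExpr, TMM scaling, robust quasi-likelihood test, Benjamini-Hochberg adjustment over all genes, threshold 0.05) was fitted to the 10 libraries with an age, to the 6 without one, and to the 12 libraries of both genotype comparisons for the interaction. Shares were counts over the class total, and were also fitted with that total as library size. Values in every library are given for the 6 segments with the highest mean share over the libraries with an age in each class of over 6 tested, for every tested segment of the smaller classes, and for every segment called; of the partner genes, called ones and the 2 with the smallest p may be named. Single shares were compared by exact permutation tests, which cannot reach 0.05 with 3 against 3 (smallest 0.1) or 4 against 3 (0.0571). Alternatives were other scaling, filters, DESeq2 1.42.0, limma-voom (limma 3.58.1), the replicate number as a block, pseudogenes left out, and each library left out. The procedure was tested on simulated data. Shares came from pandas 2.3.3 and scipy 1.17.1 under Python 3.11.15, and figures from matplotlib 3.10.9. The members, lists and tests were chosen with earlier results of these data known.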

Additional observations from a re-analysis of the deposited data

Results flagged for a closer look

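In old WT libraries, which number 4, a library stood far from the others in a pair of measures. For any single measure, chance alone would do so in about 1 in 20 groups. The number of measures screened is not given here, and whether these cases exceed chance was not tested. Trbv13-1 was lowest in old WT replicate 3, at 52.7 CPM, with 62.8 CPM in the next library. The summed Trbj2 level was highest in old WT replicate 4, at 31.7 CPM, with 26.2 CPM in the next library. The KO-labelled against WT difference was unequal in the sets with and without an age in 31 of 40 Trb segments tested by the interaction. Of all 16557 genes, 36.9% were called by the same test.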

How the results depend on the processing

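The count of segments called in either direction between KO-labelled and WT libraries without an age stayed between 31 and 35 in the alternatives run, and that of the interaction between 29 and 35. The replicate numbers did not pair the libraries (correlations of -0.23 to 0.09). With the replicate block the counts were 32 and 29, against 33 and 31 without it, and 0 in both comparisons with an age; with class totals as library size the block gave 3 called shares without an age and 4 in the interaction, against 7 and 8. DESeq2 called 1 segment in old against young WT libraries, where edgeR called 0. With the block, the old WT against young WT log2 fold change turned to -0.23 for Trbj1-7, -0.0905 for Trbj1-6 and 0.0031 for Trbd2. With 1 library left out, old WT against young WT ranged from -0.32 to 0.0542 for Trbj1-5, -0.32 to 0.11 for Trbj1-4, -0.24 to 0.19 for Trbj1-7, -0.10 to 0.18 for Trbj1-6, -0.12 to 0.29 for Trbd1, -0.35 to 0.0066 for Trbd2, -0.15 to 0.0398 for Trbc1 and -0.10 to 0.0414 for Trbc2. Young KO-labelled against young WT ranged from -0.10 to 0.20 for Trbj1-5, -0.0792 to 0.061 for Trbj1-4, -0.0164 to 0.34 for Trbd1 and -0.0029 to 0.19 for Trbc1, and without an age Trbd2 ranged from -0.56 to 0.0496. With pseudogenes left out the Trbj2-7 share difference without an age was 19.1 percentage points, against 10.6. The median of all genes without an age was 0.08 with TMM, 0.17 with library size alone and 0.53 with no filter. The causes of these shifts were not tested. Trbd counts are too few to resolve small differences of D shares.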
